A study of Mus musculus with 12 samples.

Results

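The regions described here are sites of ESRRB binding in mouse embryonic stem cells that lie at forkhead (Fox) genes, with Foxd3 and Foxa2 set aside. A region was a member when its nearest protein-coding gene in the RefSeq annotation was a forkhead gene and its centre lay inside that gene or within 50 kb of its span. The rule found 285 of the 86201 regions in the deposited count table. It covers 42 forkhead genes, of which 39 had at least 1 region. Foxj2, Foxp3 and Foxs1 had none. The rule used position alone and no measured value. In 2 regions the centre lay inside a forkhead gene and inside another protein-coding gene at once, Ttc6 beside Foxa1 and Gm51999 beside Foxn3, and these were counted to the forkhead gene.

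Forkhead proteins are transcription factors that share a winged-helix DNA-binding domain. The family includes pioneer factors of endoderm (FOXA), effectors of insulin and AKT signalling that leave the nucleus when AKT phosphorylates them (FOXO), a SMAD partner in NODAL signalling (FOXH1), a driver of mitotic genes (FOXM1) and repressors that recruit corepressor complexes (FOXK and FOXP). ESRRB, an orphan nuclear receptor, helps to keep embryonic stem cells in the naive state and binds the response element TCAAGGTCA. NANOG, a homeodomain protein, acts in the same network.

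The study held 12 samples from 2 mouse embryonic stem cell lines, with 3 ESRRB ChIP and 3 input samples each. The line titled NanogKO:Esrrb is called here the line without Nanog, and the line titled NanogKO:Esrrb:Nanog the line with Nanog. Both titles name a Nanog knockout and Esrrb, and the second adds Nanog, while the same cell line label, N{delta}:cE:iN, stands on every sample. Untreated cells in serum and LIF were crosslinked by formaldehyde, some of them also by DSG. The sources used here do not give which fixation a sample had, how Nanog was restored or whether the libraries are separate cultures, so the spread behind the p-values may be technical. ChIP counts hold no expression, so the labelled cell type could not be checked against marker levels. A count at a region is a level of ESRRB ChIP signal near a gene, with no input subtracted, and not a level of its RNA.

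The start sites were read first, because 12 RefSeq start windows of 11 forkhead genes overlapped an ESRRB region. Each window runs from 250 bases before an annotated start to 50 bases after it. On either strand the response element TCAAGGTCA was in none of the 29 windows of 26 forkhead genes, against 139 of all 32851 windows (0.423%). Its core AAGGTCA, which lies within that element, was in 2 forkhead windows, those of Foxk2 and Foxp3, against 4.72% of all windows. The forkhead core TGTTTAC was in the window of Foxa1, against 3.65% of all. These matches describe letters and not binding sites. The 250 bases before 3 starts are printed from the RefSeq table of GRCm38.p6, which mm10 stands for. Foxk2 is shown because it was the forkhead window that both overlapped an ESRRB region and held the core, which is in capitals as read on the other strand, TGACCTT, and begins 217 bases before the start. The windows of an internal start of Foxp1 and of 3300002A11Rik, a RefSeq gene whose start lies inside the span of Foxn3, are shown because the regions over them were the ones called different between the lines. Neither held any of the motifs.
Foxk2, chr11:121259737-121259986, + strand: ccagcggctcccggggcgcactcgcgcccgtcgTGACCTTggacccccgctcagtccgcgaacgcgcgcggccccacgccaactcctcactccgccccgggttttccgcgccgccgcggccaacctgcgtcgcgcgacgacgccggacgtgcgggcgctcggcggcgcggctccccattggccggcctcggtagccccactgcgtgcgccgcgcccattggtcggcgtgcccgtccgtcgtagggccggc
Foxp1 internal start, chr6:99028299-99028548, - strand: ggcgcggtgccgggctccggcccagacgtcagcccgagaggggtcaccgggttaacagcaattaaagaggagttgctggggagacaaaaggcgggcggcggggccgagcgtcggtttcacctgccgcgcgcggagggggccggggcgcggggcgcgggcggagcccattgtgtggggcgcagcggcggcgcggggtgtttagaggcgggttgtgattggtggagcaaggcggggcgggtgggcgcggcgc
3300002A11Rik, chr12:99340781-99341030, + strand: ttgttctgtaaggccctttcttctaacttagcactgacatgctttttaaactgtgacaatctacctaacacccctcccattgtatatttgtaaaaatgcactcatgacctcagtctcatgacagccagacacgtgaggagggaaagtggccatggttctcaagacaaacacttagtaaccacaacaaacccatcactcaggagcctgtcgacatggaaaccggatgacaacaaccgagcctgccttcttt
The region over the Foxk2 start (chr11:121258746-121259957) shared 221 bases with the printed stretch. Its levels were 20.9, 19.1 and 19.0 CPM without Nanog and 16.8, 21.5 and 19.9 CPM with Nanog. The lines overlapped and the region was not called. CPM here are a library's counts scaled to the same total over all regions, with TMM factors, and libraries are given in the order A, B, C of the table's column letters.

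Library totals over all regions were 2734338, 3600055 and 5193707 counts without Nanog and 6689166, 8382646 and 7834773 with Nanog. Every library with Nanog thus held more counts in the regions than every library without. Reads outside the regions were not given, so sequencing depth and ChIP enrichment cannot be told apart in these totals. The median count per region ran from 18 to 34 without Nanog and from 44 to 56 with Nanog. Regions were compared by edgeR's quasi-likelihood test over all 84892 regions that passed its count filter, and a region is called at a Benjamini-Hochberg adjusted p under 0.05. Of all regions tested, 19.2% were called, 9.42% higher and 9.78% lower with Nanog. The effect of unequal totals was checked by thinning the libraries to equal totals, and a call lost that way is named with its region. A call kept in every alternative was kept in each alternative fit that tested the region, single libraries left out included.

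Forkhead regions were called in both directions between the lines, at shares below those of all regions. Of the 273 forkhead regions tested, 45 were called (16.5%, against 19.2% of all regions and 18.4% of the regions within 50 kb of a protein-coding gene). With Nanog, 21 rose (7.69%) and 24 fell (8.79%), against 9.08% and 9.36% of the regions within 50 kb of a gene. The median log2 difference over the forkhead regions tested was 0.02, and over all regions it was -0.01. The scaling over all regions sets the typical difference near 0, so a change shared by most regions could not be seen. Differences ran from -1.66 to 1.58 on the log2 scale. Among the calls, 5 rose by 2-fold or more (1.83% of the regions tested, against 4.38% of all) and 3 fell by 2-fold or more (1.10%, against 2.09% of all). The deposited peak lists place all 5 of these rises in the line with Nanog alone, beside 3434 of the 3720 such rises over all regions. Such regions are listed only through the line in which they were higher, so the listing is no separate support for the rises. The libraries of the lines did not overlap in 88 forkhead regions (32.2%, against 33.8% of all and 33.2% of those within 50 kb of a gene). Of the 45 calls, 43 were among them, beside 15236 of the 16303 calls over all regions. The 12 regions not tested lay at 11 genes, were 20 to 181 bp wide and held 0 to 15 counts in any library. Calls were spread over 15 genes, with 24 genes and their 62 tested regions showing none. The 8 genes with at least 8 regions held 183 of the 285 regions and 37 of the 45 calls.

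**Figure D1:**
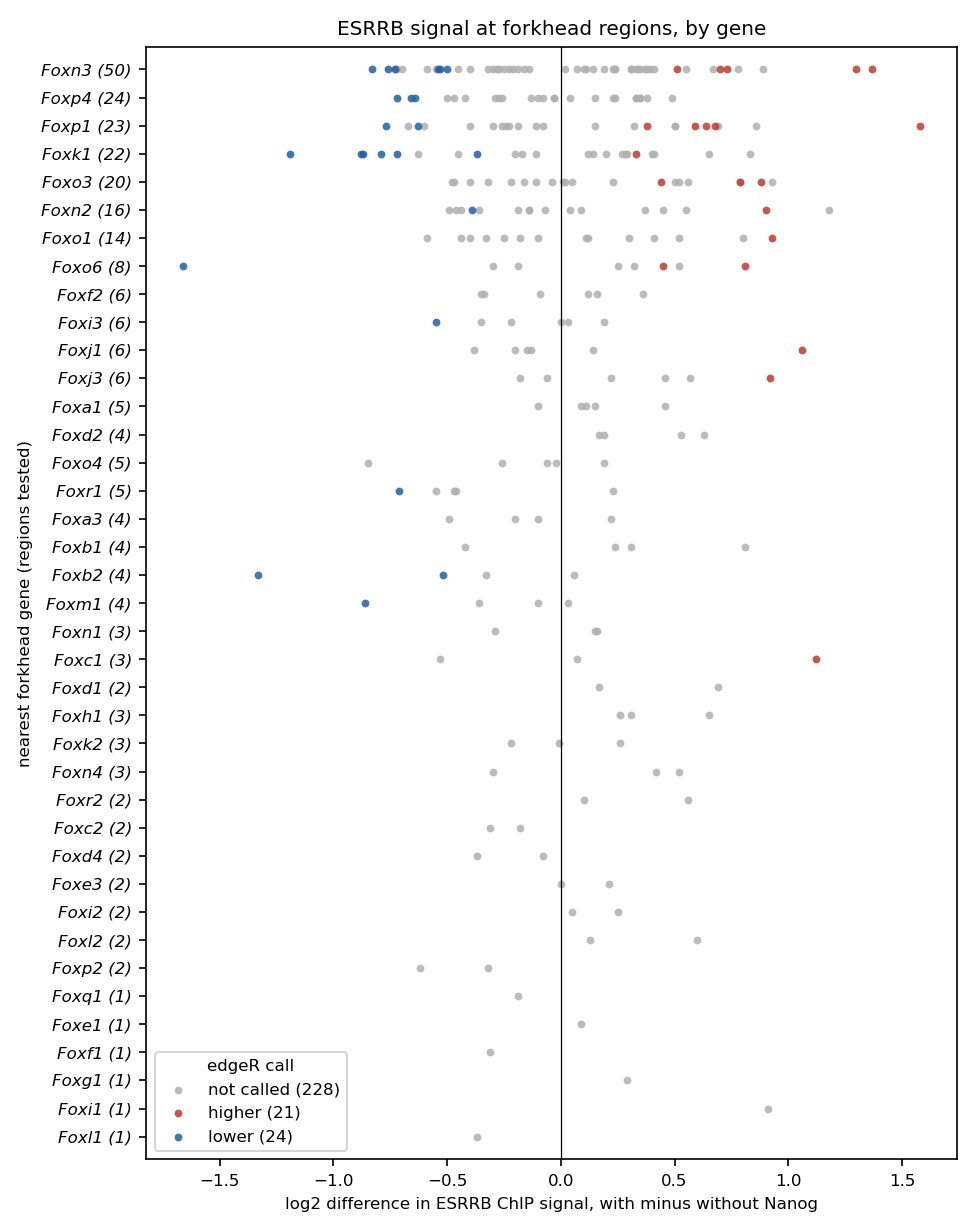
Log2 difference in ESRRB counts, with Nanog over without Nanog, for each tested region (points) at each forkhead gene (rows), coloured by call. Called regions lie on both sides of 0 at Foxk1, Foxn2, Foxn3, Foxo6 and Foxp1, on the higher side alone at Foxc1, Foxj1, Foxj3, Foxo1 and Foxo3, and on the lower side alone at Foxb2, Foxi3, Foxm1, Foxp4 and Foxr1.

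The FOXO genes encode the forkhead factors under control of AKT, and 6 of their 47 tested regions rose with Nanog (12.8%, against 9.42% of all) while 1 fell (2.13%, against 9.78%). Together 14.9% were called, against 19.2% of all regions. Foxo3, which acts in stress resistance and stem cell maintenance, held 3 of the rises and no fall among 20 regions. At the region 10.0 kb downstream of Foxo3 (chr10:42171238-42172369) the levels were 19.4, 23.6 and 21.2 CPM without Nanog and 36.0, 34.7 and 40.5 CPM with Nanog. All libraries with Nanog were above all libraries without, with a log2 difference of 0.79 ± 0.15 (SE; edgeR quasi-likelihood, Benjamini-Hochberg adjusted p = 3.31e-04). Inside Foxo3, the region chr10:42192815-42193481 had 15.7, 14.9 and 12.6 CPM without and 24.9, 26.7 and 26.5 CPM with Nanog, a difference of 0.88 ± 0.17 (edgeR, adjusted p = 4.16e-04). Both calls were kept in every alternative. The strongest Foxo3 region by mean log-CPM, also inside the gene (chr10:42246245-42246913), had 28.3, 34.8 and 31.6 CPM without and 36.7, 45.6 and 46.3 CPM with Nanog. The groups did not overlap, and the difference of 0.44 ± 0.14 was called (edgeR, adjusted p = 0.0253). That call was lost by DESeq2 and without any of libraries A or C of the line without Nanog or B or C of the line with Nanog, with log2 differences from 0.38 to 0.54 over the left-out libraries. Foxo3's regions summed to 145, 194 and 175 CPM without and 201, 215 and 220 CPM with Nanog, with no overlap.

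Foxo6, the FOXO member best known from brain and liver, held both the steepest fall among the forkhead regions and 2 rises. The fall was 46.0 kb from the gene (chr4:120220985-120221147), where the libraries held 19, 15 and 25 counts without and 17, 11 and 10 with Nanog. Scaled to the library totals these were 7.08, 4.21 and 4.90 CPM without and 2.48, 1.30 and 1.27 CPM with Nanog, and the lines did not overlap. The log2 difference was -1.66 ± 0.32 (edgeR, adjusted p = 4.54e-04), and the call was kept in every alternative. It was the only forkhead region tested that the deposited peak lists place in the line without Nanog alone. Of all tested regions listed that way, 536 of 674 were called lower (79.5%) and none higher, so the listing is no separate support for the fall. The next gene, Edn2, lay 53.7 kb away. Inside Foxo6, its strongest region (chr4:120270988-120271855) had 41.0, 50.5 and 43.5 CPM without and 62.3, 58.3 and 63.8 CPM with Nanog. It rose by 0.45 ± 0.12 on the log2 scale (edgeR, adjusted p = 0.00955), a call lost without library C of the line with Nanog (0.40 to 0.54 over the left-out libraries). A second region inside (chr4:120275581-120275904) went from 5.59, 4.21 and 4.12 CPM to 5.98, 8.96 and 8.79 CPM (log2 difference 0.81 ± 0.27; edgeR, adjusted p = 0.0321). This weaker call was lost by DESeq2 and without library C of the line without Nanog or B or C of the line with Nanog (0.71 to 0.97).

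Foxo1, which is needed for pluripotency gene expression in embryonic stem cells, had 1 call among 14 tested regions. That region, 49.2 kb downstream (chr3:52399116-52399432), had 1.49, 6.45 and 2.94 CPM without and 7.44, 6.72 and 7.14 CPM with Nanog. Library B without Nanog came close to the line with Nanog, and the call at 0.93 ± 0.31 (edgeR, adjusted p = 0.0338) was lost without any library other than that one (0.68 to 1.55 over the left-out libraries), and by DESeq2. It also lay at the edge of the membership rule. The nearest region beyond the 50 kb limit, 50.8 kb from Foxo1 (chr3:52400434-52401476), is not a member and went the other way, from a mean of 105 to 64.6 CPM (log2 difference -0.70, called lower). The other regions on either side of the limit were not called, with log2 differences of -0.67 at 49.0 kb from Foxp1 and -0.10 at 48.9 kb from Foxp4 inside the limit, and 0.06 at 50.2 kb from Foxp4 and 0.19 at 50.4 kb from Foxn2 beyond it. The strongest region of Foxo1, 13.9 kb upstream (chr3:52253939-52254853), averaged 29.3 ± 4.4 CPM without and 31.6 ± 1.7 CPM with Nanog (SD, n = 3 each; log2 difference 0.12, not called). Foxo4, the X-linked member, had no call among 5 regions.

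FOXP proteins are repressors that act as dimers, and of their 49 tested regions 10 were called (20.4%, against 19.2% of all), with 5 rises at Foxp1 and falls at both Foxp1 (2) and Foxp4 (3). Foxp1 is known in embryonic stem cells for a splice form that favours pluripotency genes. The region chr6:99383959-99384237 inside Foxp1 had 6, 13 and 10 counts without and 45, 88 and 48 with Nanog. In CPM these were 2.24, 3.65 and 1.96 without and 6.56, 10.4 and 6.12 with Nanog, and the lines did not overlap. This was the steepest rise among the forkhead regions, at 1.58 ± 0.32 on the log2 scale (edgeR, adjusted p = 7.62e-04). The region was a listed peak only in the line with Nanog, the line in which it was higher. It was kept in every alternative and stayed between 1.29 and 1.91 when single libraries were left out. A second Foxp1 region kept in every alternative (chr6:99240719-99241167) went from 14.5, 14.6 and 16.5 CPM to 28.3, 23.8 and 21.7 CPM (log2 difference 0.68 ± 0.17; edgeR, adjusted p = 0.00551).

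The Foxp1 region over the internal start printed above (chr6:99028349-99029280) had 12.3, 16.5 and 17.8 CPM without and 23.5, 25.7 and 25.0 CPM with Nanog. All libraries with Nanog lay above, and the difference was 0.64 ± 0.17 (edgeR, adjusted p = 0.00820), lost only in the thinned libraries. Of the 12 forkhead start windows under an ESRRB region, this was the one whose region was called. Foxp1's strongest region (chr6:99378542-99379634) had 40.3, 44.6 and 37.7 CPM without and 48.6, 56.4 and 54.4 CPM with Nanog. It rose by 0.38 ± 0.13 (edgeR, adjusted p = 0.0303), which was lost in the thinned libraries, by DESeq2 and without libraries A or C of the line without Nanog or B or C of the line with Nanog (0.33 to 0.47). The fifth rise lay 18.3 kb upstream, from 17.2, 24.4 and 27.1 CPM to 29.5, 38.6 and 37.1 CPM, with a log2 difference of 0.59 (edgeR, adjusted p = 0.0102). It was lost in the thinned libraries and without library A of the line without Nanog or B or C of the line with Nanog (0.45 to 0.75). The falls, downstream of Foxp1 at chr6:98917178-98917503 (log2 difference -0.77; edgeR, adjusted p = 0.0222) and inside it at chr6:99452587-99452970 (log2 difference -0.63; edgeR, adjusted p = 0.0493), were both lost by DESeq2, in the thinned libraries and without library C of the line without Nanog or A or B of the line with Nanog, where they ran from -0.91 to -0.59 and from -0.75 to -0.44. The fall inside was lost without library A of the line without Nanog or C of the line with Nanog, under scaling by column totals and with no filter as well. Foxp1's regions together went from 231, 244 and 267 CPM to 277, 301 and 301 CPM, a ratio of 1.18 with no overlap.

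Foxp4, a paralog of Foxp1, went the other way in sum, from 415, 411 and 426 CPM to 352, 375 and 352 CPM (ratio 0.861, no overlap). Its calls, all falls, lay upstream, 3 of the 10 regions tested there, while none of its 12 tested regions inside the gene was called. Over all regions, 11.4% of those outside a gene within 50 kb fell, and 17.8% of those inside a gene were called. The split by position at Foxp4 was not tested. The region 28.7 kb upstream (chr17:47952950-47953810) had 85.0, 79.1 and 79.2 CPM without and 54.5, 51.3 and 50.3 CPM with Nanog. Its mean fell from 81.1 ± 3.4 to 52.1 ± 2.2 CPM (SD, n = 3 each; log2 difference -0.64 ± 0.11; edgeR, adjusted p = 1.29e-04). Per length it was the strongest of the forkhead regions, at 75.8 CPM per kb of region over the 6 libraries. A neighbour 26.6 kb upstream (chr17:47950735-47951755) had 52.9, 58.6 and 62.6 CPM without and 34.3, 35.0 and 37.2 CPM with Nanog (log2 difference -0.72 ± 0.12; edgeR, adjusted p = 1.20e-04). Both kept their call in every alternative. The last fall, 1.62 kb upstream of the gene, was smaller in level, at 17.9, 13.2 and 14.1 CPM without and 8.60, 9.55 and 10.1 CPM with Nanog (log2 difference -0.66; edgeR, adjusted p = 0.0212), and was lost without library A of either line or library B of the line with Nanog (-0.72 to -0.53). Inside Foxp4, the strong region chr17:47897938-47899459 had 44.0, 50.8 and 52.0 CPM without and 56.6, 65.8 and 51.0 CPM with Nanog. The lines overlapped there and it was not called. Foxp2, a factor of speech and motor circuits, had 2 regions and no call.

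FOXK proteins repress autophagy genes and induce glycolytic ones, and Foxk1 was the forkhead gene with the most falls beside Foxn3, 6 of 22 tested regions, with 1 rise. The FOXK and FOXJ genes together had 9 of 37 tested regions called (24.3%, against 19.2% of all). Of these, 3 rose (8.11%, against 9.42%) and 6 fell (16.2%, against 9.78%). Of the 8 regions tested outside Foxk1, all below its lower coordinate, 4 fell. Over all regions outside a gene within 50 kb, 11.4% fell, and the split by position at Foxk1 was not tested. The strongest of all forkhead regions by mean log-CPM was among these 4 falls, 30.3 kb from Foxk1 (chr5:142370284-142372090), at 141, 113 and 140 CPM without and 103, 95.6 and 105 CPM with Nanog. It fell by 0.37 on the log2 scale (SE 0.10; edgeR, adjusted p = 0.0102), and the call was lost in the thinned libraries and without libraries A or C of the line without Nanog or B of the line with Nanog (-0.46 to -0.31). A neighbour, the region chr5:142373018-142373566, fell more steeply, from 33.9, 31.4 and 40.6 CPM to 19.8, 17.6 and 21.0 CPM (log2 difference -0.87 ± 0.15; edgeR, adjusted p = 1.46e-04). A region 8.16 kb from the gene went from 19.8, 24.4 and 21.8 CPM to 13.3, 11.3 and 13.8 CPM (log2 difference -0.79 ± 0.18; edgeR, adjusted p = 0.00194). The fourth, 40.3 kb away, went from 7.08, 11.8 and 10.2 CPM to 5.83, 5.42 and 4.84 CPM (log2 difference -0.88 ± 0.24; edgeR, adjusted p = 0.0101). Its call was lost without library C of the line with Nanog (-1.01 to -0.73), while the middle pair kept theirs in every alternative.

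Inside Foxk1 the calls went in both directions. The region chr5:142416276-142416575 fell from 13.8, 19.4 and 11.6 CPM to 6.56, 6.25 and 6.63 CPM, without overlap (log2 difference -1.19 ± 0.22; edgeR, adjusted p = 3.43e-04), and kept its call in every alternative. The region chr5:142421298-142421674 had 13.0, 8.69 and 16.3 CPM without and 9.19, 7.55 and 6.88 CPM with Nanog. The lines overlapped at it, and its call (log2 difference -0.72; edgeR, adjusted p = 0.0270) was lost by DESeq2, in the thinned libraries and without libraries A or C of the line without Nanog or B or C of the line with Nanog (-0.92 to -0.43). The rise, at chr5:142427624-142429551, was from 52.9, 59.2 and 63.7 CPM to 70.4, 81.8 and 70.7 CPM (log2 difference 0.33 ± 0.12; edgeR, adjusted p = 0.0405). It was lost by DESeq2 and without library A of the line without Nanog or any library of the line with Nanog (0.26 to 0.41). Foxk1's regions in sum went from 476, 464 and 500 CPM to 447, 454 and 425 CPM, a ratio of 0.920 without overlap. Foxk2, its paralog, had 3 regions and no call.

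FOXJ1 drives the formation of motile cilia, and FOXJ3 acts in muscle and germ cells. At Foxj3, the strongest region, 2.65 kb downstream (chr4:119631395-119632140), had 14.9, 25.8 and 11.4 CPM without and 27.8, 36.7 and 32.2 CPM with Nanog. Library B without Nanog lay highest of its line, just under the lowest library with Nanog. The rise of 0.92 ± 0.20 (edgeR, adjusted p = 0.00136) kept its call in every alternative and ran from 0.65 to 1.35 when single libraries were left out. At Foxj1 a weak region 1.24 kb from the gene (chr11:116329296-116329625) held 7, 10 and 11 counts without and 35, 44 and 41 with Nanog. That made 2.61, 2.80 and 2.16 CPM against 5.10, 5.19 and 5.22 CPM, a log2 difference of 1.06 ± 0.30 (edgeR, adjusted p = 0.0137). The call was lost by DESeq2 and without library C of the line without Nanog (0.93 to 1.16 over the left-out libraries).

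**Figure D2:**
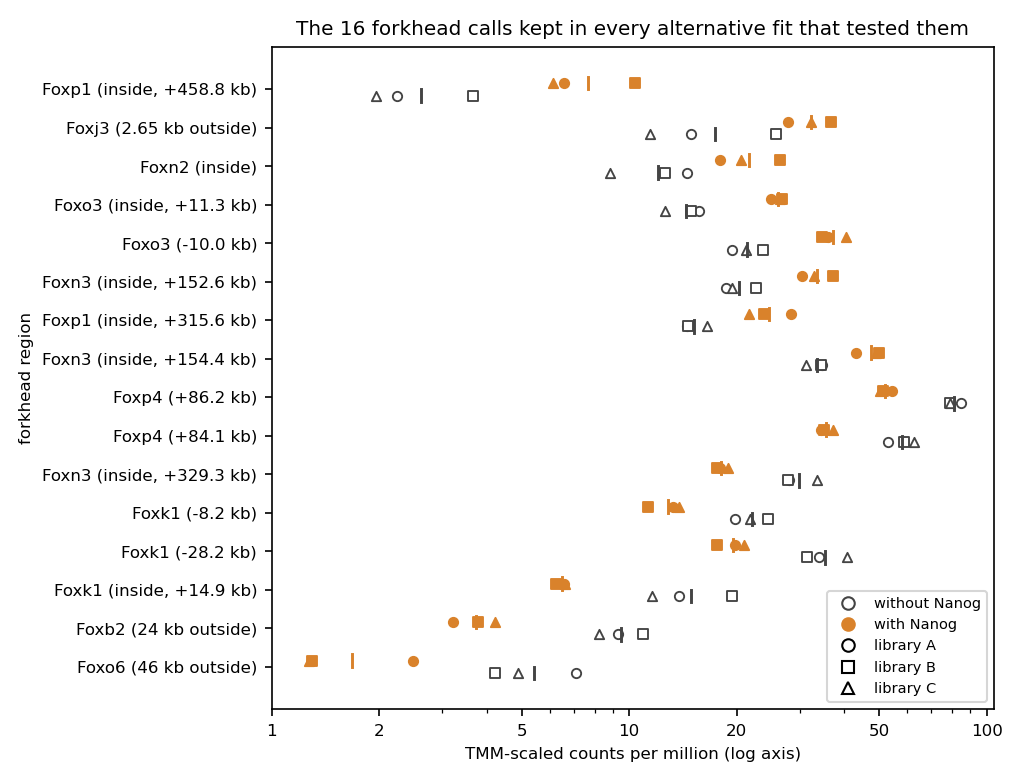
ESRRB level in CPM (log axis) in each of the 6 ChIP libraries for the 16 forkhead regions called in every alternative that tested them, with colour for the line, symbol for the library and a tick at the mean of each line. Falls such as the region 28.7 kb upstream of Foxp4, from a mean of 81.1 to 52.1 CPM, and rises such as the region 10.0 kb downstream of Foxo3 show no overlap between the lines.

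Foxn3, a repressor of cell cycle genes, spans 374 kb on chromosome 12 and had the most regions, 51. Its summed level was the same in both lines within the spread, at 481, 548 and 489 CPM without and 482, 536 and 504 CPM with Nanog. Of its 50 tested regions 11 were called, 5 higher and 6 lower, which is near the shares of all regions (19.2%, 9.42% and 9.78%). Over the FOXM, FOXN and FOXR genes together, 15 of 83 tested regions were called (18.1%, against 19.2% of all). Of these, 6 rose (7.23%, against 9.42%) and 9 fell (10.8%, against 9.78%). The 5 rises lay within 20.1 kb of each other, in a stretch holding 7 tested regions, and the first 4 were neighbours within 3.45 kb. The 6 falls were spread over 331 kb, with the nearest to the rises 24.5 kb further on. This spacing was seen in the calls and was not tested.

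Among the 4 neighbours, the region chr12:99341971-99343359 had 18.6, 22.7 and 19.4 CPM without and 30.5, 37.1 and 32.9 CPM with Nanog (log2 difference 0.73 ± 0.15; edgeR, adjusted p = 0.00116). The strongest region of Foxn3 (chr12:99344076-99344977) had 34.7, 34.5 and 31.2 CPM without and 43.2, 50.1 and 48.9 CPM with Nanog (log2 difference 0.51 ± 0.13; edgeR, adjusted p = 0.00594). In both, all libraries with Nanog were above all without, and both calls were kept in every alternative. The region over the start of 3300002A11Rik printed above (chr12:99340961-99341200) held 6, 12 and 6 counts without and 35, 56 and 32 with Nanog. Its log2 difference was 1.30 ± 0.35 (edgeR, adjusted p = 0.00873), and the call was lost without library C of the line without Nanog or B of the line with Nanog (0.89 to 1.77). The weakest of them (chr12:99343792-99343984) held 4, 5 and 2 counts without and 18, 22 and 19 with Nanog. Its difference of 1.37 ± 0.42 (edgeR, adjusted p = 0.0216) was lost by DESeq2 and without library C of the line without Nanog or any library of the line with Nanog (0.82 to 1.71). The fifth rise (chr12:99360863-99361533) went from 10.8, 15.7 and 10.8 CPM to 19.2, 24.1 and 17.2 CPM (log2 difference 0.70 ± 0.20; edgeR, adjusted p = 0.0115) and was lost without library C of the line without Nanog or B of the line with Nanog (0.55 to 0.92).

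Of the Foxn3 falls, the one at chr12:99519129-99519700 went from 28.0, 27.8 and 33.5 CPM to 17.9, 17.6 and 18.9 CPM (log2 difference -0.73 ± 0.16; edgeR, adjusted p = 0.00122) and was kept in every alternative. The region chr12:99497237-99497758 went from 17.5, 16.3 and 13.5 CPM to 10.5, 8.84 and 8.28 CPM (log2 difference -0.76 ± 0.20; edgeR, adjusted p = 0.00803) and lost its call without library C of the line with Nanog (-0.86 to -0.68). The other 4 had log2 differences from -0.83 to -0.50, and each was lost by DESeq2, in the thinned libraries and without 4 of the 6 single libraries. One of them, chr12:99385410-99385891, was also lost under column totals, and its libraries overlapped between the lines, at 16.8, 25.8 and 22.4 CPM without and 13.9, 17.3 and 13.9 CPM with Nanog.

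**Figure D3:**
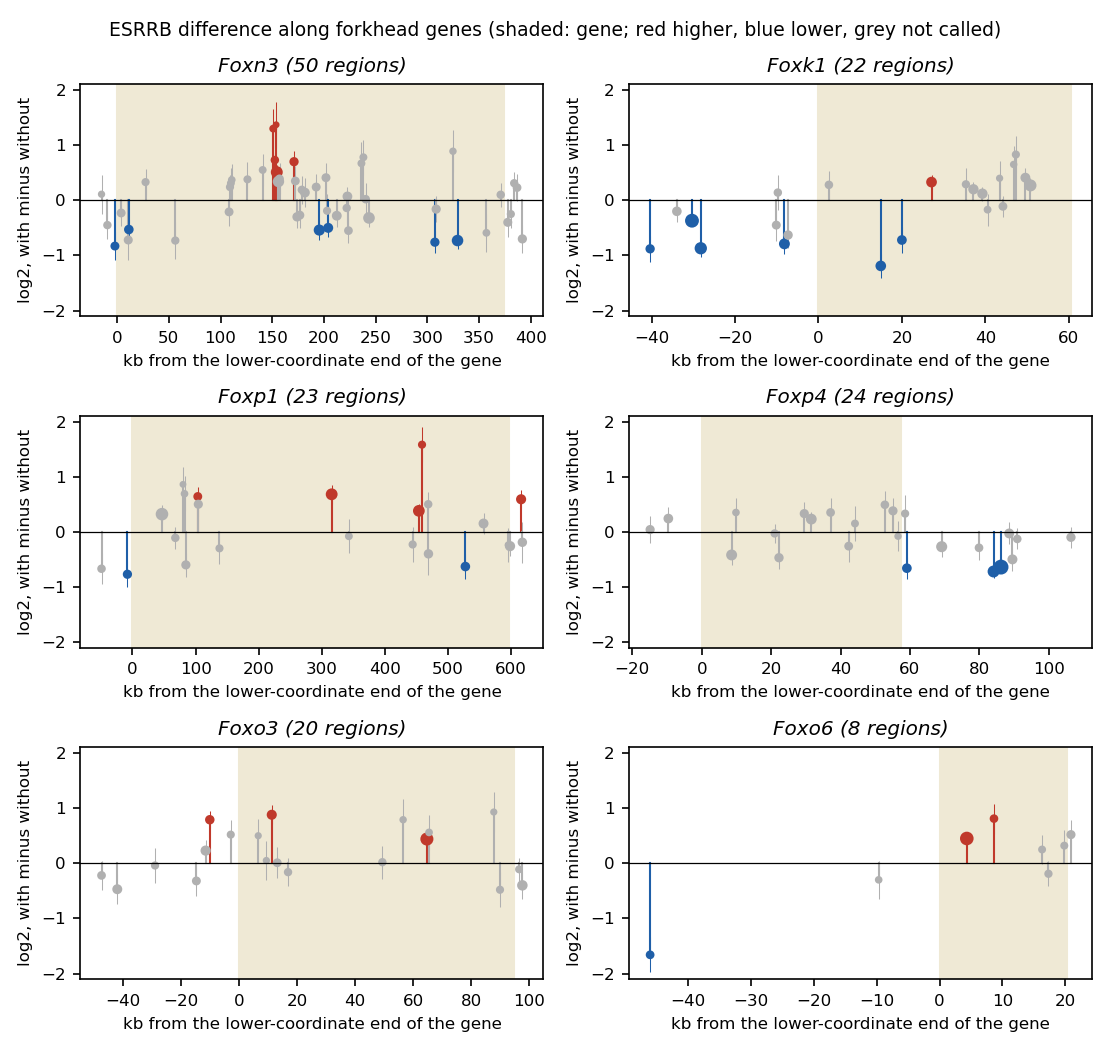
Log2 difference in ESRRB counts (with Nanog over without) against position along the gene in kb for Foxn3, Foxk1, Foxp1, Foxp4, Foxo3 and Foxo6, with point area proportional to CPM per kb of region, thin bars for 1 SE, shading for the gene and colour for the call. At Foxn3 the 5 rises sit within 20.1 kb of each other and the 6 falls are spread over 331 kb, and at Foxp4 the 3 falls lie outside the gene.

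Foxn2, a close relative of Foxn3, had 1 rise and 1 fall among 16 regions. The rise, inside the gene (chr17:88468653-88469283), was from 14.5, 12.6 and 8.82 CPM to 17.9, 26.4 and 20.5 CPM (log2 difference 0.90 ± 0.20; edgeR, adjusted p = 0.00206) and was kept in every alternative. The fall was at its strongest region, 0.638 kb from the gene's lower coordinate (chr17:88439437-88440694), from 58.2, 61.1 and 58.8 CPM to 53.9, 39.6 and 43.1 CPM. Library A with Nanog stood closest to the line without Nanog. This call (log2 difference -0.39 ± 0.13; edgeR, adjusted p = 0.0306) was lost under scaling by column totals, by DESeq2 and without libraries A or C of the line without Nanog or B or C of the line with Nanog (-0.52 to -0.29). Foxm1 had 1 fall among 4 regions, from 9.32, 6.17 and 8.63 CPM to 5.10, 3.54 and 4.71 CPM (log2 difference -0.86 ± 0.26; edgeR, adjusted p = 0.0196), and Foxr1 1 among 5, from 12.3, 6.45 and 8.63 CPM to 5.39, 5.07 and 5.86 CPM (log2 difference -0.71; edgeR, adjusted p = 0.0457). Both were lost by DESeq2, in the thinned libraries and without libraries A or C of the line without Nanog or B of the line with Nanog, where the smallest differences were -0.71 and -0.48. The Foxr1 call was lost without libraries A or C of the line with Nanog and under scaling by column totals as well. Foxn1, the gene of thymic epithelium and hair, Foxn4, a retinal factor, and Foxr2 had no call.

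The FOXA, FOXH and FOXB genes had 2 falls among 20 tested regions (10.0% called, against 19.2% of all), both downstream of Foxb2, a gene of the developing nervous system. At 24.0 kb downstream (chr19:16848145-16848510) the levels were 9.32, 10.9 and 8.24 CPM without and 3.21, 3.77 and 4.20 CPM with Nanog. The lines were far apart, and the difference of -1.33 ± 0.25 (edgeR, adjusted p = 3.71e-04) was kept in every alternative. The strongest Foxb2 region, 15.3 kb downstream (chr19:16856762-16857321), held 78, 111 and 156 counts without and 138, 170 and 181 with Nanog, which scaled to 30.3 ± 1.1 and 21.1 ± 1.7 CPM (SD, n = 3 each; log2 difference -0.52 ± 0.15; edgeR, adjusted p = 0.0132). That call was lost in the thinned libraries and without libraries A or B of the line with Nanog (-0.59 to -0.49). In sum Foxb2 went from 46.6, 55.8 and 46.5 CPM to 30.9, 32.5 and 38.5 CPM, a ratio of 0.685. Foxh1, the NODAL pathway partner of SMAD2, had 3 regions inside the gene and no call. Their sum was 29.1, 29.7 and 31.4 CPM without and 42.1, 36.4 and 34.9 CPM with Nanog, which did not overlap. Its strongest region (chr15:76671106-76671746) averaged 18.4 ± 0.33 CPM without and 22.3 ± 3.5 CPM with Nanog (SD, n = 3 each; log2 difference 0.26; edgeR, adjusted p = 0.298). Foxa1, the pioneer factor, had 5 regions and no call. Its strongest, 24.6 kb downstream (chr12:57515593-57516377), averaged 38.2 ± 1.2 and 42.2 ± 1.4 CPM (SD, n = 3 each; log2 difference 0.15; edgeR, adjusted p = 0.467).

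The genes of mesoderm, eye and endocrine tissues (FOXC, FOXF, FOXL and FOXQ) had 1 rise and no fall among 16 tested regions (6.25% called), and the FOXD, FOXE, FOXG and FOXI genes 1 fall and no rise among 21 (4.76%), against 19.2% of all regions. The rise lay 26.9 kb upstream of Foxc1 (chr13:31779572-31779895), from 2.98, 2.24 and 2.16 CPM to 4.81, 4.95 and 5.86 CPM (log2 difference 1.12 ± 0.31; edgeR, adjusted p = 0.0106). It was lost by DESeq2 and without library C of either line (1.02 to 1.25). Foxi3, a gene of placode and tooth development, carried the most ESRRB ChIP signal per length of the 39 genes, at 40.1 CPM per kb of region. Its strongest region, the second strongest of all forkhead regions (chr6:70963668-70964998), had 75.3, 65.6 and 78.6 CPM without and 70.7, 74.8 and 74.9 CPM with Nanog. The lines overlapped and it was not called. The Foxi3 fall, 7.45 kb from the gene (chr6:70968233-70968790), was from 26.1, 25.0 and 31.6 CPM to 21.4, 16.9 and 19.0 CPM (log2 difference -0.55 ± 0.16; edgeR, adjusted p = 0.0164). It was lost in the thinned libraries and without library C of either line or B of the line with Nanog (-0.63 to -0.41).

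Summed over a gene's regions, ESRRB levels did not overlap between the lines in 14 of the 39 genes, with 7 higher and 7 lower with Nanog. The higher ones were Foxa1, Foxc1, Foxh1, Foxj3, Foxo3, Foxo6 and Foxp1, with ratios from 1.11 to 1.29. The lower ones were Foxb2, Foxf1, Foxi3, Foxk1, Foxl1, Foxp4 and Foxr1, with ratios from 0.685 to 0.920. Foxf1 and Foxl1 had 1 region each, and Foxa1, Foxf1, Foxh1 and Foxl1 had no called region. Over single regions the libraries of the lines did not overlap in 33.8% of all regions tested. No such share was computed for sums over other genes, and no test was run on the sums.

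**Figure D4:**
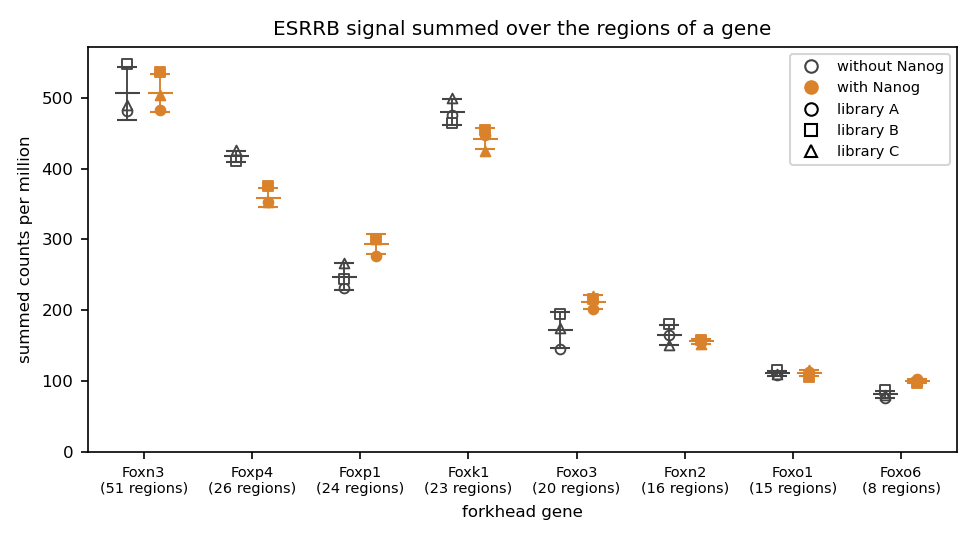
ESRRB level in CPM summed over the regions of each gene in the 6 ChIP libraries, for the genes with at least 8 regions, with colour for the line and bars for the mean ± SD (n = 3). Foxp4 and Foxk1 lie lower with Nanog, Foxp1, Foxo3 and Foxo6 lie higher, and Foxn3, Foxn2 and Foxo1 overlap between the lines.

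Position and peak lists set the called regions beside the rest. Inside forkhead genes 15 of 157 tested regions rose (9.55%) and 9 fell (5.73%), against 9.76% and 8.07% of all regions inside protein-coding genes. Outside them 6 of 116 rose (5.17%) and 15 fell (12.9%), against 8.03% and 11.4% of all regions outside a gene within 50 kb. Within 1 kb of a gene's end, 2 of 36 forkhead regions were called (5.56%), against 8.59% of all regions there. The deposited peak lists placed 106 of the 273 forkhead regions in both lines (38.8%, against 38.4% of all regions tested). They placed 166 in the line with Nanog alone, beside 51603 of all 84892 regions tested. Of these 166, 156 were not called, 9 rose and 1 fell. The median of their mean log-CPM was 2.22 (log2 scale), against 4.02 for the forkhead regions in both lists. A region not called at such low counts may still differ in level. Of the 24 falls, 22 were peaks in both lines (91.7%, against 81.6% of all falls). Of the 21 rises, 12 were peaks in both lines (57.1%, against 30.2% of all rises) and 9 in the line with Nanog alone. Of the forkhead regions in the list with Nanog alone, 6.02% were called, against 12.7% of all regions in that list. These descriptions carry no test.

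Genes that work with the forkhead factors were read from lists of textbook partners and targets. At regulators of the PI3K, AKT and FOXO axis 19 of 178 regions rose and 15 fell (19.1% called). Known FOXO target genes had 6 rises and 16 falls among 132 regions (16.7%). The partners and targets of FOXH1 and SMAD had 11 rises and 8 falls among 88 (21.6%), and the corepressor partners of FOXK and FOXP had 8 rises and 3 falls among 108 (10.2%). The mitotic targets of FOXM1 had 1 fall and no rise among 34 regions (2.94%). All of these stand beside 19.2% of all regions. Of the strongest regions of the 87 list genes with a tested region, 12 rose, 10 fell and 65 were not called. No share of calls over the strongest regions of all genes was computed to set beside these counts. Named below are 3 of the regions, picked after their values were seen. Each is 1 region of its gene. In the lists that hold Pik3r1 and Cited2, whose strongest regions fell, those of other genes rose, such as Pdpk1 (log2 difference 1.02) and Bcl6 (1.18). At Pik3r1, a regulatory subunit of PI3K with 18 tested regions (1 higher and 2 lower), the strongest fell from 46.4 ± 6.5 to 23.8 ± 1.9 CPM (SD, n = 3 each; log2 difference -0.96 ± 0.14; edgeR, adjusted p = 1.47e-05). At Cited2, a FOXO target with 3 falls among 11 tested regions, it fell from 55.7 ± 3.6 to 29.9 ± 4.1 CPM (SD, n = 3 each; log2 difference -0.90 ± 0.13; edgeR, adjusted p = 1.61e-05). At Hdac2, a histone deacetylase with 3 rises among 11 tested regions, it rose from 15.2 ± 0.46 to 29.4 ± 1.9 CPM (SD, n = 3 each; log2 difference 0.95 ± 0.16; edgeR, adjusted p = 9.73e-05). At the forkhead genes left out by the rule, 7 of 18 tested regions of Foxd3 rose and none fell, and 1 of 9 tested regions of Foxa2 fell.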

How the data were processed

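Per the submitters' processing notes, tools were MACS2, Bowtie2, deepTools, bcl2fastq 2.19.1, bedtools 2.26.0 and SAMtools 1.4.1, on build mm10. Settings and read counter: not given in the sources used here. Per region, the authors deposited whole-number read counts for 6 ChIP libraries, unnormalised, and peak lists of coordinates (other values, with no score). Columns are lettered, and titles numbered, so each column was matched to its line. Input samples were not used.

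Regions passing filterByExpr were scaled by TMM and tested with edgeR 4.0.16 in R 4.3.3 (glmQLFit, glmQLFTest) with the line as the only term, and p-values were adjusted over all regions tested. The script was tested on simulated data. Log-CPM has a prior count of 2, and SE is the log2 difference over the root of F. The forkhead genes and lists were chosen with earlier results of these data known. Named regions are calls of 2-fold or more, each gene's strongest region, calls whose libraries do not overlap and the 10 strongest. Other calls are added to complete each gene. Alternatives were other scalings, filters and distances, DESeq2 1.42.0, a column-letter block, single libraries left out and, chosen after seeing the data, thinning to equal totals. Pairs of libraries within a line differed by more than counting noise (chi-square per degree of freedom 1.33 to 2.51). Coordinates are 1-based. Strand, where given, comes from the RefSeq start table, which held 24 of the 39 genes. Exon and intron positions were not used here.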

Additional observations from a re-analysis of the deposited data

How the results depend on the processing

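Of the 45 forkhead calls, 16 were kept in every alternative that tested them, 29 were lost in at least 1 of the 13 fits, and none changed sign. DESeq2's test lost 18, thinning 15, column totals 4, and leaving out single libraries from 3 to 21. Over all regions 16303 were called. With a mean count of at least 50 this was 10481, by DESeq2 10035, in libraries thinned to equal totals 10138, and with single libraries left out 9768 to 18259. The 21 forkhead rises became 13 by DESeq2, 5 with 1 region per gene and 12 to 26 with single libraries left out. The lowest values came without libraries C (12) and B (13) of the line with Nanog. The 24 falls became 14 by DESeq2, 14 in thinned libraries, 4 with 1 region per gene and 12 to 26 with single libraries left out, with 12 without library B of the line with Nanog and 15 without library C of that line or libraries A or C of the line without Nanog. A fit with the column letter as replicate block gave 27 rises, 32 falls and 20920 calls over all regions. Deviations of same-letter libraries correlated at 0.083, 0.223 and 0.128 and those of unlike letters from -0.159 to 0.045, so every library correlated best with its own letter. That is a hint from the data and not from the design, and with 1 pair at or under 0.1 and no label that ties the letters to a shared culture or day, the fit without the block was kept.

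Of the 33 named regions that were not called, 13 changed sign in some fit and 3 gained a call. In thinned libraries a region of Foxc1 had a log2 difference of -0.192, Foxe3 0.118, Foxo4 0.066 and Foxk2 0.092. Under column totals Foxe3 had 0.037, Foxo4 0.022 and Foxk2 0.031, and Foxe3 had 0.006 with no filter and 0.001 with the replicate block. With single libraries left out, Foxa3 ran from -0.436 to 0.125, Foxb1 from -0.018 to 0.668, Foxd1 from -0.238 to 1.053, Foxd4 from -0.18 to 0.176, Foxe3 from -0.134 to 0.122, Foxi2 from -0.085 to 0.193, Foxi3 from -0.059 to 0.077, Foxm1 from -0.222 to 0.09, Foxn4 from -0.432 to 0.035, Foxo4 from -0.071 to 0.071, Foxq1 from -0.384 to 0.107 and Foxk2 from -0.091 to 0.085. The cause was not tested. Libraries without Nanog held fewer counts. The regions that changed sign were not all weak, as that of Foxi3 was the second strongest forkhead region (main log2 difference 0.0).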
